A study of Rattus norvegicus with 7 samples.

Results

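The 10 genes described here act at the kinetochore, in the spindle checkpoint and at the start of anaphase: Cenpe, Cenpf, Knstrn, Ndc80, Ttk, Bub1, Bub1b, Mad2l1, Cdc20 and Pttg1. They were taken by gene symbol from a list drawn up for this description, with earlier results of these data known. Their counts set beside all genes are therefore a description, not a test. All 10 were found among the 17141 genes measured. They were read in ventricular cardiomyocytes, the beating muscle cells of the lower heart chambers, from wild-type Wistar rats at postnatal day 0. Cells that stayed in suspension when the heart digest was left on plastic were used, which enriches for cardiomyocytes without purifying them. Each culture was transfected with 1 miRNA at a final 25 nM and lysed for RNA after 72 h. The 6 miRNAs were the human sequences miR-1825, miR-590-3p, miR-33b*, miR-199a-3p, miR-302d-3p and miR-373-3p, and cel-miR-67, a nematode miRNA, served as the reference because the authors' deposited ratios have it as the denominator. The study, by its title, concerns pathways shared by miRNAs that make cardiomyocytes proliferate. Each miRNA has 1 library, so no difference has a replicate check and no p-value is given.

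The kinetochore is the protein plate that forms on the centromere of each chromosome in mitosis and holds the microtubules of the spindle. While any kinetochore lacks microtubules, the spindle checkpoint keeps the anaphase-promoting complex, the ubiquitin ligase that ends mitosis, from being switched on by Cdc20. Once all are attached, the complex marks securin and cyclin B for destruction, separase is released and the sister chromatids part. Transcripts of these genes are made mostly in late S, G2 and M phase of dividing cells, and heart muscle cells largely leave the cell cycle soon after birth.

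Levels are RPKM, reads scaled to the length of the gene and the size of the library, so they can be set side by side between genes. Changes are the log2 ratio of RPKM + 1 between a miRNA library and that of cel-miR-67, and a value of 1 is called 2-fold. Folds are ratios of RPKM with an exact (Clopper-Pearson) 95% interval from the reads behind them. These intervals cover counting error only and compare libraries, not conditions. The library sizes that the RPKM imply ran from 22446204 to 34708142 and are not plain read totals, since in cel-miR-67 the listed genes had 24836246 reads against a size of 22674410. The 10 genes had between 125 and 8343 reads per library, and all of them passed the minimum mean of 1 RPKM that 12330 genes reached.

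All 10 genes had their lowest level in the cel-miR-67 library and their highest in the miR-1825 library. The levels of the 10 genes summed to 235.6 RPKM after miR-590-3p, 323.2 after miR-1825, 175.8 after miR-33b*, 175.7 after miR-199a-3p, 162.3 after miR-302d-3p and 181.8 after miR-373-3p, against 93.4 RPKM after cel-miR-67. The summed level was thus 1.74 times that of the cel-miR-67 library after miR-302d-3p and 3.46 times after miR-1825, with the other 4 miRNAs between 1.88 and 2.52 times. In RNA of whole cultures, more dividing cells and more transcript per cell cannot be told apart. The median change of the 10 genes was 1.26 after miR-590-3p, 1.66 after miR-1825, 0.81 after miR-33b*, 0.96 after miR-199a-3p, 0.74 after miR-302d-3p and 0.90 after miR-373-3p. Over all 12330 genes the median lay between -0.0034 and 0.015 in the 6 comparisons. All 60 fold intervals lay above 1, the lowest being that of Mad2l1 after miR-199a-3p.

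**Figure D1:**
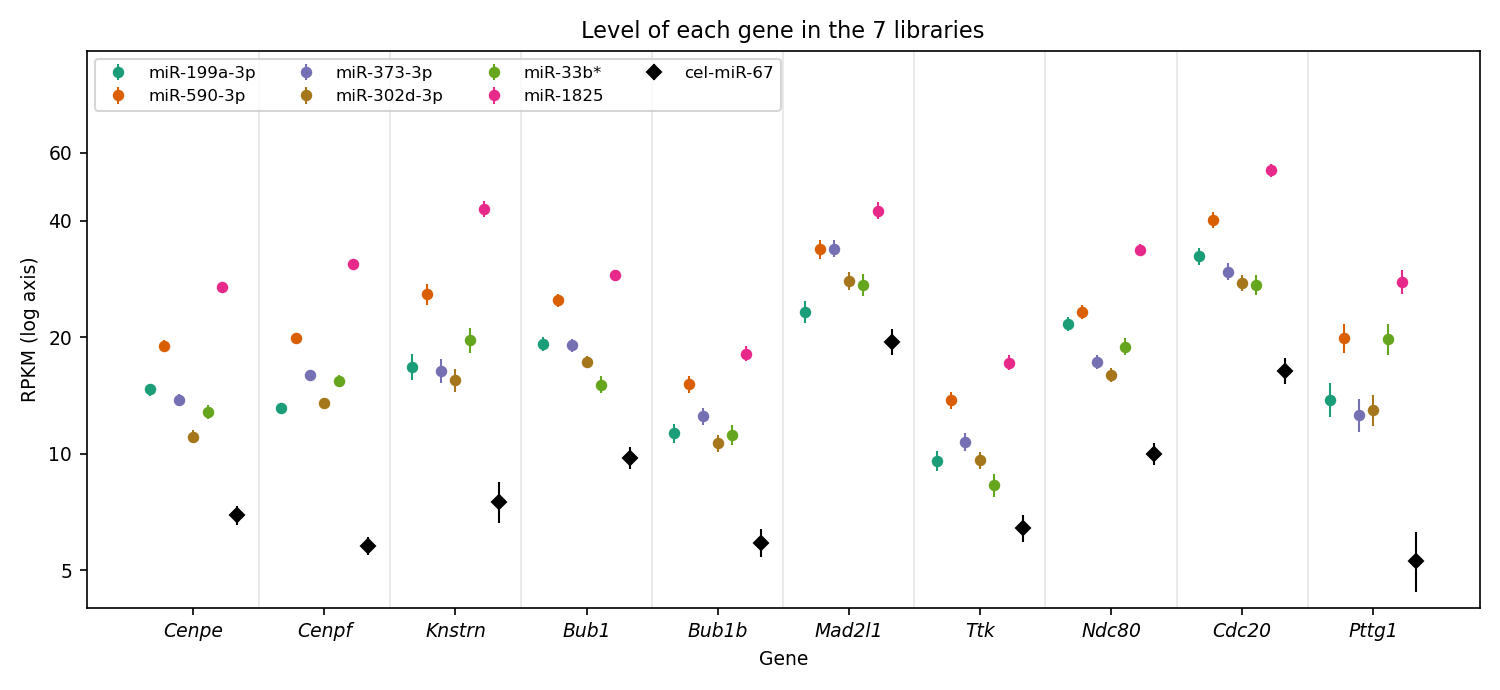
RPKM (log axis) of each of the 10 genes in the 6 miRNA libraries and the cel-miR-67 library, 1 point per library, with exact 95% Poisson intervals of the reads. For all 10 genes the miR-1825 point is the highest and the cel-miR-67 point the lowest, and levels run from 5.28 RPKM for Pttg1 after cel-miR-67 to 54.1 RPKM for Cdc20 after miR-1825.

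Of the 10 genes, 4 were at least 2-fold higher after miR-199a-3p, where 1.04% of all 12330 genes were. The count was 8 of 10 after miR-590-3p, against 1.51% of all genes, and 3 of 10 after miR-373-3p, against 1.15%. It was 3 of 10 after miR-33b*, against 1.30%, and 2 of 10 after miR-302d-3p, against 1.31%. After miR-1825 it was 10 of 10, against 2.00% of all genes. None of the 10 was at least 2-fold lower in any of the 6 libraries. Of all genes, 0.762% were so after miR-590-3p, 1.63% after miR-1825, 1.24% after miR-33b*, 1.52% after miR-199a-3p, 2.11% after miR-302d-3p and 1.87% after miR-373-3p. All 10 changes were above 0 in all 6 libraries, as were those of 13.9% of all genes. Cenpe, Cenpf, Knstrn, Bub1b, Ndc80, Cdc20 and Pttg1 passed 1.5-fold after every one of the 6 miRNAs, 7 of 10 against 0.584% of all genes. Cenpf and Pttg1, 2 of 10, passed 2-fold after each of the 6, which 6 genes or 0.0487% of all did. All 6 changes of a gene have the same cel-miR-67 value as their denominator, so a low value there raises them together. The counts also move with the scale: with 5 RPKM added in place of 1, the number at least 2-fold higher was 0 after miR-199a-3p, and with equal totals of listed reads it was 8.

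**Figure D2:**
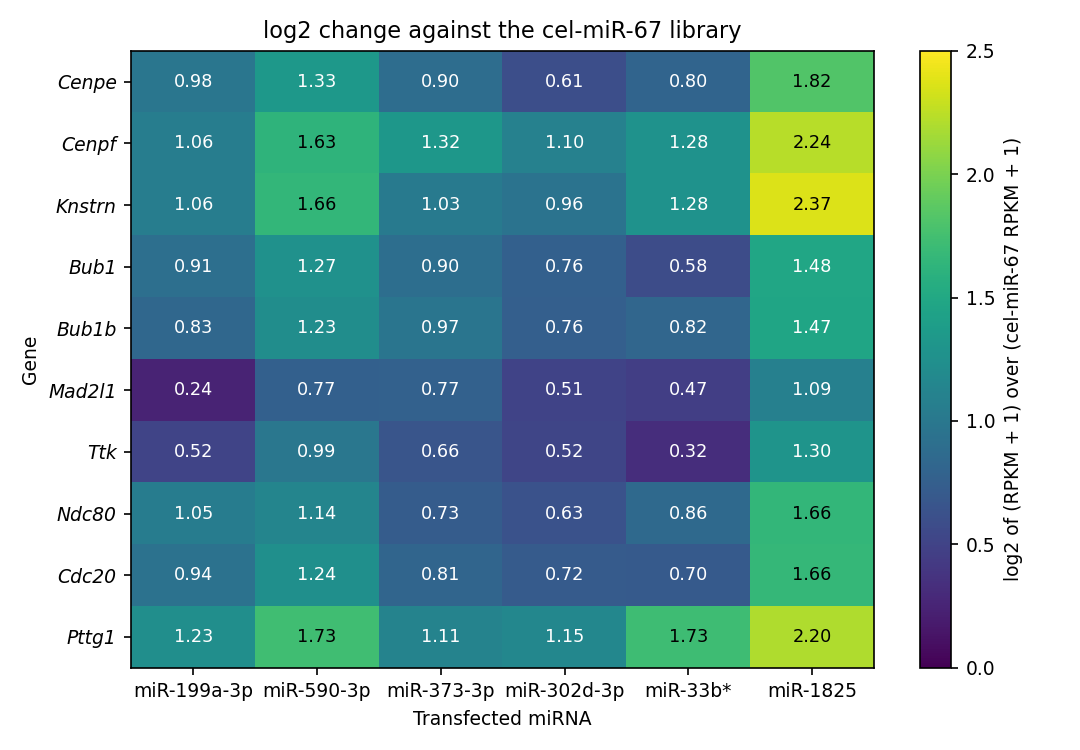
Change of the 10 genes (rows), as the log2 ratio of RPKM + 1 to its cel-miR-67 value, after each of the 6 miRNAs (columns), with the value printed in each cell and shown by colour. Values run from 0.24 for Mad2l1 after miR-199a-3p to 2.37 for Knstrn after miR-1825.

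The start regions of the genes were read from RefSeq's promoter table (build GRCr8, 250 bases before to 50 after the table's start site), which matched all 10. Genes of late cell cycle phases often carry a cell cycle homology region (CHR, TTTGAA), which binds the DREAM and MuvB complexes, downstream of CCAAT boxes, which bind NF-Y. The letters TTTGAA occurred, on either strand, in 8 of the 10 windows and in 17.0% of 19005 windows of protein-coding genes. All 8 had a match between 60 bases before and 50 after the start site, where 4.97% of all windows had one. CCAAT occurred in 5 of 10 windows (Cenpe, Cenpf, Ttk, Cdc20 and Pttg1) and in 38.4% of all. The CHR variant TTCGAA was in 1, that of Bub1b, against 1.76% of all, and the E2F-like letters TTCCCGC were in 0 of 10, against 5.60%. Among 53 windows of the related genes on the 4 lists described further on, 32.1% held TTTGAA, 52.8% CCAAT, 17.0% the variant and 15.1% the E2F-like letters. A match is a description of sequence, not a bound site.

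Regions of 130 bases, from 100 before the start site on, are shown (GRCr8, printed on the strand of the gene) for 4 genes that differ in these letters, with matches to the CHR letters (reading TTCAAA where the match is on the other strand) and to the CCAAT box (likewise ATTGG) in capitals. Cdc20 and Pttg1 hold both kinds, Bub1b holds the CHR letters without the NF-Y ones, and Bub1 holds neither.
Cdc20 (chr5:137255770-137255899, minus strand): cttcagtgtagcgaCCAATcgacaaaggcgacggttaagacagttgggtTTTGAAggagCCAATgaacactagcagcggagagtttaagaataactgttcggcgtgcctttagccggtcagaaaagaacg
Pttg1 (chr10:28406297-28406426, minus strand): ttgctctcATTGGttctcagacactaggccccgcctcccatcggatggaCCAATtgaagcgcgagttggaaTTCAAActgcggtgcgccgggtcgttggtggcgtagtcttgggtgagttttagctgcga
Bub1b (chr3:126016967-126017096, plus strand): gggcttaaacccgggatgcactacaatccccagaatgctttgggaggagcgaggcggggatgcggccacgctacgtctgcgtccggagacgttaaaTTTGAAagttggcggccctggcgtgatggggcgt
Bub1 (chr3:135504892-135505021, minus strand): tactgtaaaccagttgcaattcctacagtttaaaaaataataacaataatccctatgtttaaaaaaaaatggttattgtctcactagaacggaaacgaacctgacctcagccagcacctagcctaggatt

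In Cdc20 the TTTGAA match began 51 bases before the start site, between CCAAT matches at -86 and -41. In Pttg1 it began at -29, with CCAAT matches at -243, -92 and -51. The matches of Bub1b, Knstrn, Cenpf and Ttk began at -4, -9, 2 and 4 from the start site, and those of Mad2l1 and Ndc80 at 27 and 33. Over the 6 miRNAs, the genes with both kinds of letters had median changes of 1.48 (Pttg1), 1.30 (Cenpf), 0.88 (Cdc20) and 0.59 (Ttk). Those with the CHR letters and no CCAAT had 1.17 (Knstrn), 0.95 (Ndc80), 0.90 (Bub1b) and 0.64 (Mad2l1). Cenpe, with CCAAT and no CHR letters, had 0.94, and Bub1, with neither, 0.91.

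**Figure D3:**
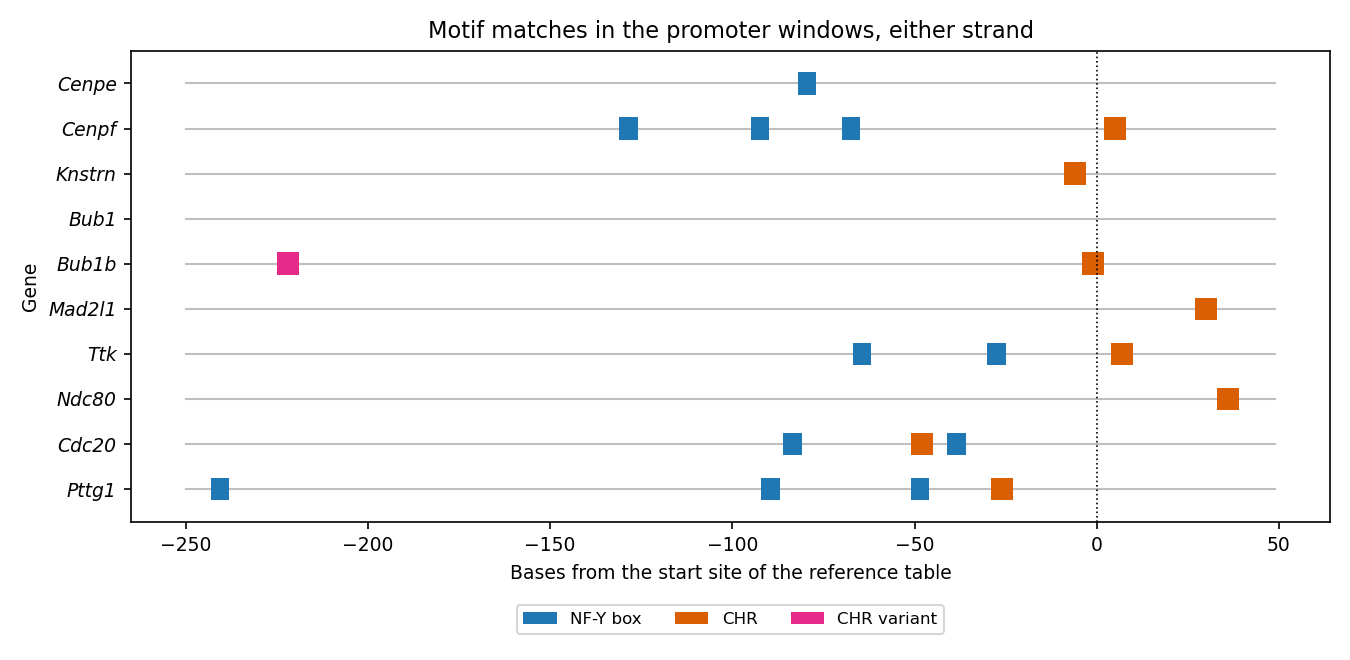
Matches to the CHR, the CHR variant and the NF-Y box (CCAAT) on either strand in the promoter windows of the 10 genes, by distance in bases from the start site of the reference table. CHR matches lie within 60 bases before and 50 after the start site in 8 of the 10 genes, and the Bub1 window holds no match.

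At the kinetochore, Ndc80 is the microtubule-binding arm of the outer plate and names the complex that it forms with Nuf2, Spc24 and Spc25. Its level was 23.2 RPKM after miR-590-3p, 33.7 after miR-1825, 18.9 after miR-33b*, 21.7 after miR-199a-3p, 16.0 after miR-302d-3p and 17.3 after miR-373-3p, against 10.0 RPKM after cel-miR-67. Ranked by level, each of the 7 libraries differed from the next beyond counting error at the library sizes that the RPKM imply. The change was 1.66 after miR-1825, a fold of 3.37 (3.12 to 3.63), and was smallest, at 0.63, after miR-302d-3p. With equal totals of listed reads the order of miR-199a-3p and miR-590-3p was reversed, with changes of 1.38 and 1.15. That scaling also moved the median of all genes, by 0.30 after miR-199a-3p and by 0.013 after miR-590-3p.

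Cenpe is the kinesin motor that carries chromosomes along microtubules to the spindle equator. It stood at 19.0 RPKM after miR-590-3p, 27.0 after miR-1825, 12.8 after miR-33b*, 14.7 after miR-199a-3p, 11.1 after miR-302d-3p and 13.8 after miR-373-3p, against 6.94 RPKM after cel-miR-67. As for Ndc80, no pair of neighbours in the order of levels was within counting error at the implied library sizes. Its fold was 3.89 (3.65 to 4.14) after miR-1825 and 1.60 (1.49 to 1.71) after miR-302d-3p.

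Cenpf, a large coiled-coil protein that builds up in G2, sits on the nuclear envelope and then on the kinetochore. Its levels were 19.9 RPKM after miR-590-3p, 30.9 after miR-1825, 15.4 after miR-33b*, 13.1 after miR-199a-3p, 13.6 after miR-302d-3p and 16.0 after miR-373-3p, against 5.78 RPKM after cel-miR-67. Its change was never below 1.06 and reached 2.24 after miR-1825, a fold of 5.35 (5.05 to 5.67). The levels after miR-373-3p and miR-33b* could not be told apart at this depth, nor could the miR-199a-3p level from the miR-302d-3p level.

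Knstrn (kinastrin, also called SKAP) works with Spag5 on spindle microtubules and helps align chromosomes. It was measured at 25.9 RPKM after miR-590-3p, 42.9 after miR-1825, 19.6 after miR-33b*, 16.8 after miR-199a-3p, 15.5 after miR-302d-3p and 16.4 after miR-373-3p, against 7.52 RPKM after cel-miR-67. The miR-1825 value was the largest fold among the 60, 5.71 (5.01 to 6.52), and ranked 4 among the changes of all 12330 genes in that library. The 3 levels between 15.5 and 16.8 RPKM lay close together, and neighbours among them did not differ beyond counting error.

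Among the checkpoint genes, Ttk (Mps1) is the kinase that starts the signal at kinetochores without microtubules. It stood at 13.7 RPKM after miR-590-3p, 17.2 after miR-1825, 8.29 after miR-33b*, 9.60 after miR-199a-3p, 9.62 after miR-302d-3p and 10.7 after miR-373-3p, against 6.41 RPKM after cel-miR-67. Its change of 0.32 after miR-33b*, a fold of 1.29 (1.16 to 1.44), was the smallest of the 10 genes in that library. It passed 2-fold after miR-1825, with a change of 1.30, and not after the other 5 miRNAs. After miR-590-3p the change was 0.99, although the fold without the added 1 RPKM was 2.14 (1.95 to 2.36).

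Bub1 is a kinase that marks the centromere through histone H2A and helps place the other checkpoint proteins. Its levels were 24.9 RPKM after miR-590-3p, 28.9 after miR-1825, 15.1 after miR-33b*, 19.2 after miR-199a-3p, 17.3 after miR-302d-3p and 19.1 after miR-373-3p, against 9.76 RPKM after cel-miR-67. The change was 0.58 after miR-33b*, just under the 1.5-fold limit on the log2(RPKM + 1) scale, and 1.48 after miR-1825.

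Bub1b encodes BubR1, the relative of Bub1 that joins Mad2l1, Bub3 and Cdc20 in the mitotic checkpoint complex. It was at 15.1 RPKM after miR-590-3p, 18.1 after miR-1825, 11.2 after miR-33b*, 11.3 after miR-199a-3p, 10.6 after miR-302d-3p and 12.5 after miR-373-3p, against 5.89 RPKM after cel-miR-67. Its changes spanned 0.76 to 1.47, the narrowest span among the 10 genes. Bub1b stood at 0.741 (0.684 to 0.803) of the Bub1 level after miR-33b*, an interval that did not overlap that of 0.604 (0.543 to 0.671) after cel-miR-67. The ratio was 0.587 to 0.655 in the other 5 miRNA libraries, and their intervals overlapped that of the cel-miR-67 library.

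Mad2l1 (Mad2) is the protein that binds Cdc20 and holds it inactive. Its levels were 33.8 RPKM after miR-590-3p, 42.5 after miR-1825, 27.3 after miR-33b*, 23.2 after miR-199a-3p, 28.0 after miR-302d-3p and 33.9 after miR-373-3p, against 19.4 RPKM after cel-miR-67. It had the smallest change of the 10 genes after miR-1825, miR-590-3p, miR-199a-3p and miR-302d-3p. After miR-199a-3p its fold was 1.19 (1.08 to 1.32), and its change ranked 2332 among 12330 genes, while after miR-1825 the fold was 2.18 (1.99 to 2.40). It was also the gene for which miR-590-3p was not second in the order of levels, although the miR-373-3p level above it did not differ beyond counting error.

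Of the anaphase genes, Cdc20 is the activator of the anaphase-promoting complex that the checkpoint holds back. It had the highest level of the 10 genes in 4 of the 6 miRNA libraries, though it was not separated from Mad2l1 after miR-33b*. Its levels were 40.1 RPKM after miR-590-3p, 54.1 after miR-1825, 27.3 after miR-33b*, 32.4 after miR-199a-3p, 27.6 after miR-302d-3p and 29.6 after miR-373-3p, against 16.4 RPKM after cel-miR-67. Its changes lay closest to the median of the 10 genes, with a root mean square difference of 0.057 over the 6 comparisons. The fold was 3.30 (3.03 to 3.60) after miR-1825 and 1.67 (1.51 to 1.84) after miR-33b*.

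Pttg1 encodes securin, which keeps separase from cutting cohesin until the anaphase-promoting complex destroys it. It stood at 19.9 RPKM after miR-590-3p, 27.9 after miR-1825, 19.8 after miR-33b*, 13.8 after miR-199a-3p, 13.0 after miR-302d-3p and 12.6 after miR-373-3p, against 5.28 RPKM after cel-miR-67. It had the largest change of the 10 genes after miR-590-3p, miR-33b*, miR-199a-3p and miR-302d-3p. The fold after miR-33b* was 3.75 (3.07 to 4.61), next to 3.77 (3.09 to 4.62) after miR-590-3p. With 125 reads in the cel-miR-67 library it has the widest intervals of the 10, and it lay farthest from their median, with a root mean square difference of 0.525.

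The genes did not keep their proportions between libraries. Mad2l1 over Cdc20 was 0.842 (0.781 to 0.907) after miR-590-3p, 0.786 (0.738 to 0.836) after miR-1825 and 0.718 (0.661 to 0.780) after miR-199a-3p. It was 0.998 after miR-33b*, 1.02 after miR-302d-3p and 1.15 after miR-373-3p, against 1.19 (1.06 to 1.33) after cel-miR-67. The checkpoint inhibitor thus had the lower RPKM of the pair, beyond counting error, in the first 3 of these libraries. It had the higher RPKM in the miR-373-3p and cel-miR-67 libraries. The intervals do not cover an error in the gene lengths behind the RPKM. Pttg1 over Mad2l1 was 0.589 after miR-590-3p, 0.655 after miR-1825, 0.726 after miR-33b*, 0.593 after miR-199a-3p, 0.463 after miR-302d-3p and 0.371 after miR-373-3p, against 0.271 (0.222 to 0.329) after cel-miR-67. All 6 miRNA intervals of this ratio lay above that of the cel-miR-67 library. Pttg1 made up 11.3% of the summed level of the 10 genes after miR-33b*, against 5.65% after cel-miR-67, the smallest share in that library. Mad2l1 made up 13.1% of it after miR-1825, against 20.8% after cel-miR-67, the largest share there.

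Cenpf over Cenpe was 1.05 after miR-590-3p, 1.15 after miR-1825, 1.20 after miR-33b*, 0.895 (0.853 to 0.940) after miR-199a-3p, 1.22 after miR-302d-3p and 1.16 after miR-373-3p, against 0.833 (0.769 to 0.901) after cel-miR-67. By RPKM, the order of these kinetochore genes in 5 of the miRNA libraries was therefore the reverse of that in the cel-miR-67 library. After miR-199a-3p the order was the same as there. Knstrn stood at 0.644 (0.595 to 0.697) of the Cdc20 level after miR-590-3p, 0.794 (0.747 to 0.843) after miR-1825 and 0.719 (0.652 to 0.792) after miR-33b*, against 0.459 (0.396 to 0.530) after cel-miR-67. It stood at 0.518 (0.474 to 0.567) after miR-199a-3p, 0.563 (0.517 to 0.611) after miR-302d-3p and 0.555 (0.509 to 0.605) after miR-373-3p, and these 3 intervals overlapped that of cel-miR-67. All 3 ratios were above that of cel-miR-67, and overlap of intervals does not by itself mean a difference within counting error.

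**Figure D4:**
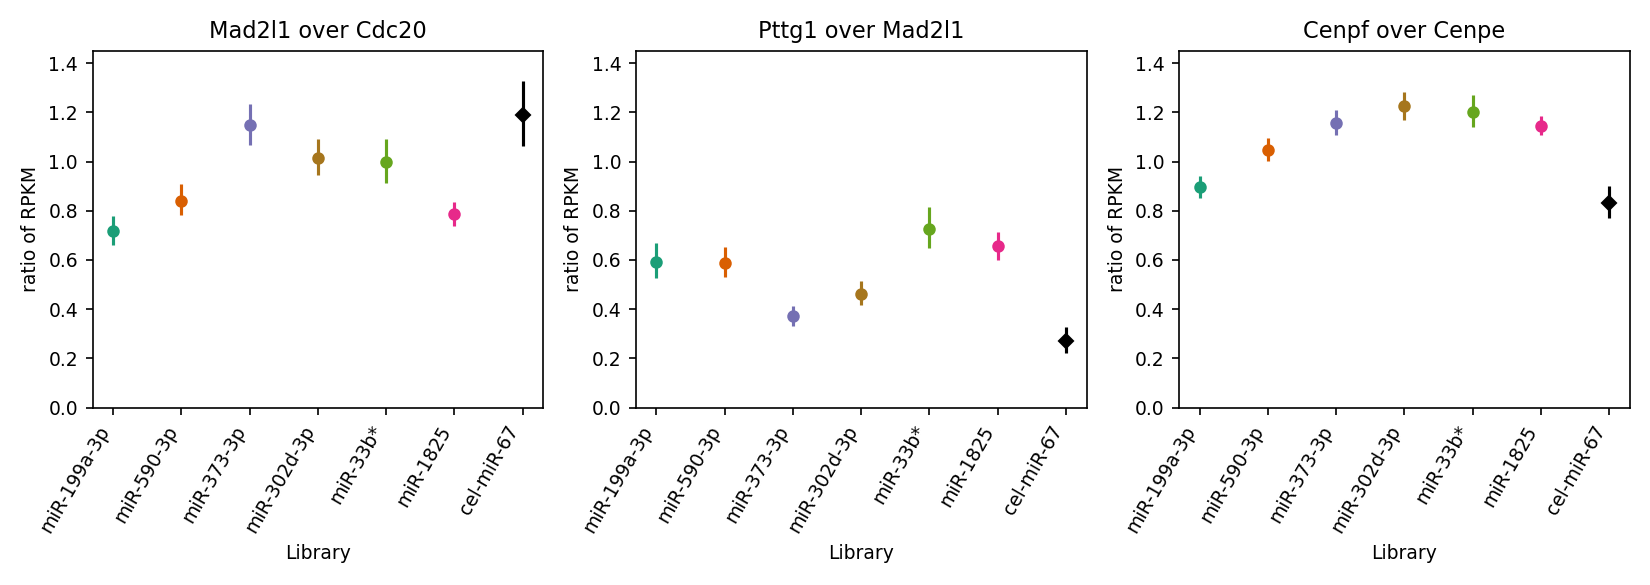
Ratio of RPKM within each library for Mad2l1 over Cdc20, Pttg1 over Mad2l1 and Cenpf over Cenpe, 1 point per library with its exact 95% interval for counting error. Pttg1 over Mad2l1 is higher in all 6 miRNA libraries (0.371 to 0.726) than in the cel-miR-67 library (0.271).

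Across libraries, by RPKM as deposited, miR-1825 gave the highest level of all 10 genes and miR-590-3p the second highest of 9. Set directly against the miR-590-3p library, the miR-1825 library was higher for all 10 genes by a median log2 difference of 0.44 (range 0.21 to 0.71), and no fold interval included 1. The lowest of the 6 miRNA levels was found after miR-302d-3p for 4 genes, after miR-33b* for 3, after miR-199a-3p for 2 and miR-373-3p for 1. The second and lowest places moved with the scale. With equal totals of listed reads, Ndc80 and Cdc20 had larger changes after miR-199a-3p (1.38 and 1.28) than after miR-590-3p (1.15 and 1.25). Pttg1 had a larger change after miR-33b* (1.82) than after miR-590-3p (1.73). That scaling also moved the median of all genes, by 0.30 after miR-199a-3p, 0.098 after miR-33b*, 0.21 after miR-302d-3p and 0.013 after miR-590-3p. The reversed orders thus include a shift of whole libraries. With these totals the smallest of the 6 changes was after miR-302d-3p for Cenpf (1.32) and after miR-33b* for Bub1b (0.92) and Mad2l1 (0.58). The library most often lowest was then that of miR-33b*, no longer that of miR-302d-3p. The miRNAs miR-302d-3p and miR-373-3p have a common seed. The miR-302d-3p library was lower than the miR-373-3p library for 9 of the 10 genes and higher for Pttg1, with a median log2 difference of -0.14 (range -0.29 to 0.04). At the library sizes that the RPKM imply, the intervals of Knstrn and Pttg1 included 1 in this pair, and that of Cdc20 ended at 0.999. Intervals of this pair at equal totals of listed reads were not computed. For these orders and pairs of libraries, the shares of all genes were not counted. The changes of the 10 genes were most spread after miR-33b*, over 1.40 between Ttk and Pttg1, and least after miR-302d-3p, over 0.65 between Mad2l1 and Pttg1.

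The other genes of these structures came from 4 lists of 63 genes in all, of which 60 were measured and reached 1 RPKM. By their medians, the lists were less far from the cel-miR-67 library than the 10 genes. The 10 genes and the lists were chosen with earlier results of these data known, so this contrast is a description. None of the 60 was at least 2-fold lower after any of the 6 miRNAs. Of all genes 0.762% to 2.11% were, shares at which few of 60 would be. The median change of 11 outer kinetochore genes was 0.85 after miR-590-3p, 1.06 after miR-1825, 0.37 after miR-33b*, 0.48 after miR-199a-3p, 0.33 after miR-302d-3p and 0.46 after miR-373-3p, and 3 of them were at least 2-fold higher after miR-590-3p, 6 after miR-1825, 1 after miR-302d-3p and 0 after the other 3 miRNAs. Of all 12330 genes 1.51%, 2.00% and 1.31% passed 2-fold in those 3 libraries, and 1.04% to 1.30% in the others. Spc24, the Ndc80 complex subunit that faces the chromosome, stood at 6.15 to 10.1 RPKM in the miRNA libraries, against 3.72 RPKM after cel-miR-67. Ska1, which couples kinetochores to shrinking microtubules, had changes of 0.34 to 1.60, and Mis12, of the complex that ties Ndc80 to the centromere, of -0.19 to 0.35. Zwint, which joins Knl1 to the Zw10 complex, had a change of 0.50 after miR-1825 and of -0.70 to -0.31 after the other 5 miRNAs. After miR-1825 its level was 144.2 RPKM, against 102.0 RPKM after cel-miR-67.

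The median change of 18 inner centromere genes was 0.79 after miR-590-3p, 1.03 after miR-1825, 0.41 after miR-33b*, 0.54 after miR-199a-3p, 0.41 after miR-302d-3p and 0.62 after miR-373-3p, with 5 at least 2-fold higher after miR-590-3p, 9 after miR-1825, 1 each after miR-33b* and miR-199a-3p and 0 after the other 2. The share of all genes was 1.51% after miR-590-3p, 2.00% after miR-1825, 1.30% after miR-33b*, 1.04% after miR-199a-3p and 1.15% to 1.31% after the other 2. Cenpa, the histone H3 variant that marks the centromere, had changes of 0.63 to 1.88, and Cenpw, a histone-fold partner at the centromere, of 0.67 to 2.05. Cenpm and Cenpo, further centromere subunits, had changes of 0.14 to 0.98 and of -0.05 to 0.59. Of the 18, 16 were above 0 in all 6 libraries, as were 9 of the 11 outer kinetochore genes and 13.9% of all genes.

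Of 10 checkpoint partners, 5 were above 0 in all 6 libraries, against 13.9% of all genes, and medians ran from 0.13 after miR-33b* to 0.49 after miR-1825. Of these 10, 2 were at least 2-fold higher after miR-1825, 1 each after miR-590-3p and miR-199a-3p and 0 after the other 3. That compares with 2.00%, 1.51% and 1.04% of all genes in the first 3 libraries and 1.15% to 1.31% in the others. Spag5, the partner of Knstrn, had changes of 0.42 to 1.62, and Spdl1, which brings dynein to kinetochores, of 0.50 to 1.47. Zw10, of the complex that recruits Mad1 and dynein, lay between -0.07 and 0.35, and Mad2l1bp, which helps remove Mad2l1 from Cdc20, between 0.02 and 0.11. Mad2l1bp was listed at 2.74 to 2.98 RPKM in the miRNA libraries, against 2.69 RPKM after cel-miR-67.

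Of 21 genes of the anaphase-promoting complex, separase and cohesion, 11 were above 0 in all 6 libraries, against 13.9% of all genes, and medians ran from 0.17 after miR-33b* to 0.29 after miR-1825. Of these 21, 3 were at least 2-fold higher after miR-590-3p, 4 after miR-1825, 1 after miR-199a-3p and 0 after the other 3, where 1.51%, 2.00%, 1.04% and 1.15% to 1.31% of all genes were. Sgol2, which shields centromeric cohesin, had changes of 0.39 to 1.46. Ube2c, the ubiquitin-conjugating enzyme that works with the anaphase-promoting complex, had changes of 0.63 to 1.61 and was the 1 gene of this list that passed 1.5-fold after each of the 6. Anapc7 and Anapc5, subunits of the complex itself and the genes of this list with the smallest median changes, had changes of -0.37 to 0.27 and of -0.66 to 0.21.

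**Figure D5:**
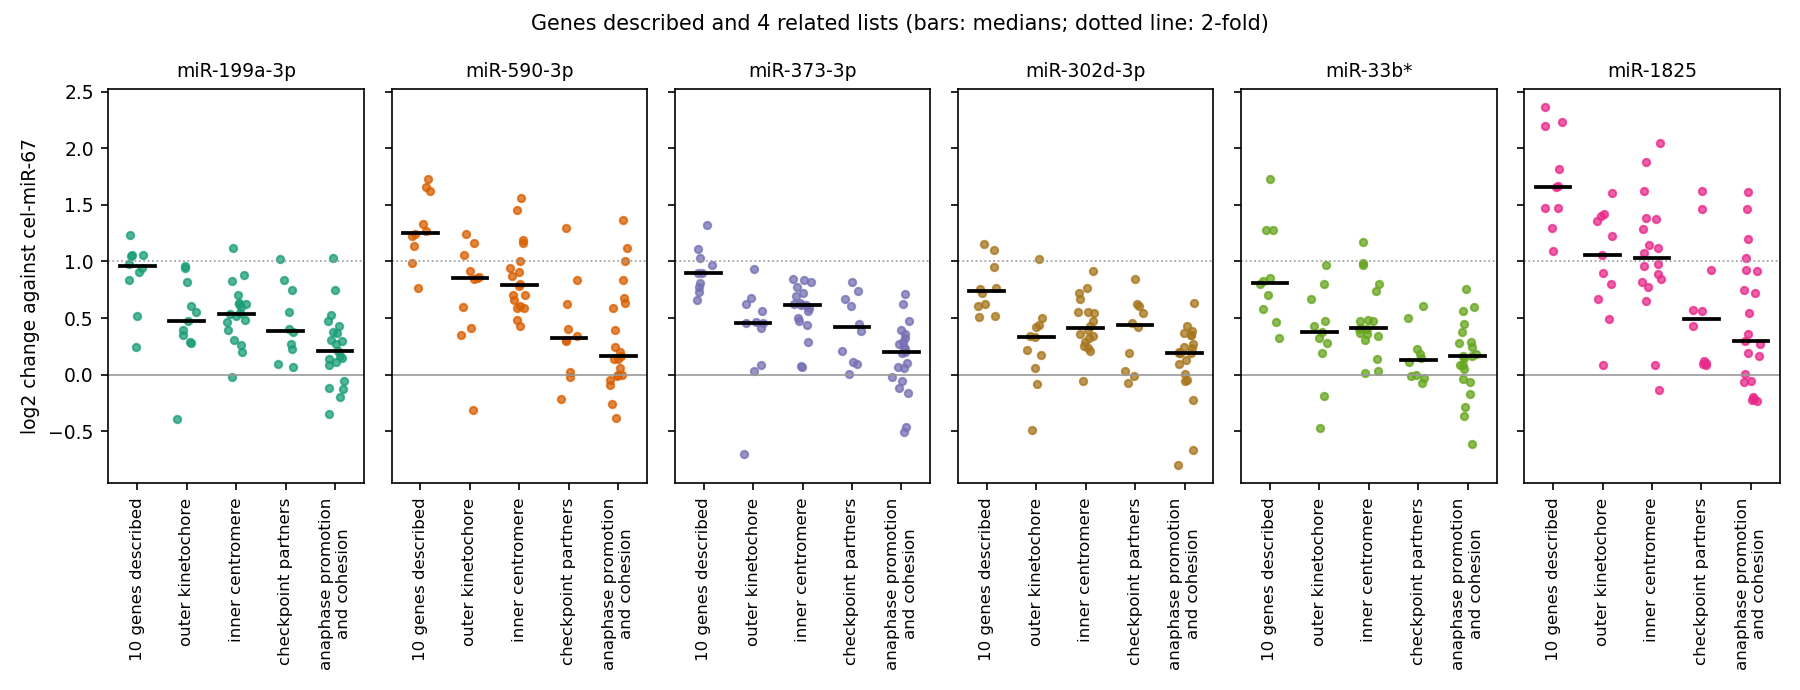
log2 change against the cel-miR-67 library, 1 panel per miRNA, for the 10 genes described and for 4 lists of related genes (11, 18, 10 and 21 genes), 1 point per gene and a bar at each median. The median of the 10 genes is the highest in each panel, from 0.74 after miR-302d-3p to 1.66 after miR-1825. The 10 genes and the lists were chosen with earlier results of these data known.

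Among 7426 protein-coding genes other than the 10, all with a mean that reached 5 RPKM, those whose 6 changes lay closest to the median changes of the 10 genes were Cdca3 and Tacc3, with root mean square differences of 0.065 and 0.081. Those of the 10 genes themselves ran from 0.057 for Cdc20 to 0.525 for Pttg1. Cdca3 stood at 21.2 to 41.9 RPKM in the miRNA libraries, against 12.1 RPKM after cel-miR-67, and Tacc3, a spindle microtubule protein, at 31.0 to 61.1 RPKM, against 19.5 RPKM. Next came Mki67, the proliferation antigen Ki-67 (0.145), the chromosome kinesin Kif4a (0.150), the phosphatase Cdkn3 (0.153), the mitotic kinesins Kif20b (0.153) and Kif22 (0.153), and Ube2c (0.160).

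Marker levels also differed between the libraries. The summed level of 10 cardiomyocyte markers was 16358 to 20443 RPKM in the miRNA libraries, against 21271 RPKM after cel-miR-67, and 5 of them were lower in all 6. That of 10 fibroblast markers was 1096 to 1354 RPKM, against 1421 RPKM, and 3 were lower in all 6 and 1 higher. The sum of 8 smooth muscle markers was 1264 to 1924 RPKM, highest after miR-1825, against 1404 RPKM. Only 1 of the 8, Cnn1, was higher in all 6, and 0 were lower in all 6. Of all genes 13.9% were higher in all 6, which is close to this 1 of 8 and to the 1 of 10 fibroblast markers. Of the 8, 6 had a change below 0 after miR-302d-3p and 5 after miR-373-3p. That number was 1 after miR-199a-3p and 3 each after miR-590-3p, miR-33b* and miR-1825. Endothelial markers, 9 of 10 matched, summed to 14.9 to 18.2 RPKM, against 24.3 RPKM, and 8 leukocyte markers to 9.16 to 15.8 RPKM, against 17.3 RPKM, and 4 genes of each of these lists reached a mean of 1 RPKM. Of the endothelial markers 3, and of the leukocyte markers 5, were lower in all 6. The share of all genes lower in all 6 was not counted. No marker was at 0 in any library. Mitochondrial genes took 27.7% of the listed reads after miR-199a-3p and 30.6% to 41.4% after the other 5 miRNAs, against 41.0% after cel-miR-67. The part of cell makeup and of these library differences in the levels of the 10 genes was not tested. In the RefSeq annotation none of the 10 genes overlapped another gene; Bub1, Ndc80, Cdc20 and Pttg1 have a neighbour within 1000 bases, and the strand setting of the counting is not given in the sources used here.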

How the data were processed

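Total RNA was made into TruSeq mRNA libraries, per the labels' protocols, with 1 library per miRNA. The authors deposited RPKM values for 17141 genes. The submitters' processing notes name Rnor_6.0, STAR 2.7 and edgeR without saying what each did. The read counter is not given in the sources used here, nor is the strand setting. The 7 deposited ratio columns were not used, and the 7 single-sample files equalled the series table.

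RPKM is a whole read number scaled by gene length and library size, and whole reads were recovered for 100% of genes within 0.002 reads, rising to 0.05 for genes with many reads. The listed reads were 85.5% to 110% of the library sizes that the RPKM imply, so these sizes carry a factor for each library whose origin is not given in the sources used here. Changes used a pseudocount of 1 RPKM, so those of genes with low levels are understated. The members and lists were chosen with earlier results of these data known. Besides the 10 genes, the text names from each of 4 lists the 2 genes with the largest and the 2 with the smallest median change, and the 8 genes nearest in pattern to the members. Recovery was tested on simulated data. Alternatives were other pseudocounts, 2 other scalings, no low filter and another reference. Sequences are from RefSeq (GRCr8) and share no coordinates with the files; protein motifs were not analysed here. Python 3.11.15, numpy 2.4.6, pandas 2.3.3 and scipy 1.17.1 were used.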

Additional observations from a re-analysis of the deposited data

How the results depend on the processing

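No paired analysis was possible because each miRNA has 1 library, and for the same reason no replicate could be left out. A pseudocount of 0.1 RPKM and median ratio scaling left the 6 median changes and the counts close to their values, and leaving out the filter on low values did so for the counts. With a pseudocount of 5 RPKM the medians were 1.01 after miR-590-3p, 1.39 after miR-1825, 0.59 after miR-33b*, 0.73 after miR-199a-3p, 0.56 after miR-302d-3p and 0.69 after miR-373-3p. The numbers of genes at least 2-fold higher were then 1 after miR-33b* and 0 each after miR-302d-3p, miR-199a-3p and miR-373-3p, and the number that passed 1.5-fold after each of the 6 was 4, since a larger pseudocount shrinks every change. With libraries scaled to equal totals of listed reads the medians were 0.97 after miR-302d-3p, 1.29 after miR-199a-3p and 1.07 after miR-373-3p. Then 8 genes were at least 2-fold higher after miR-199a-3p and 6 after miR-373-3p. The median after miR-590-3p was 1.26, now below that after miR-199a-3p. That scaling moved the median of all genes by 0.21 after miR-302d-3p, 0.30 after miR-199a-3p and 0.16 after miR-373-3p, and the members lay 0.74, 0.99 and 0.90 above that median. After miR-590-3p the members lay 1.25 above it. All 60 changes were above 0 under these pseudocounts and scalings.

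With the mean RPKM of the remaining 5 miRNA libraries in place of cel-miR-67, 22 of the 60 changes were above 0. The medians were then 0.22 after miR-590-3p, 0.76 after miR-1825, -0.26 after miR-33b*, -0.26 after miR-199a-3p, -0.43 after miR-302d-3p and -0.24 after miR-373-3p. The numbers at least 2-fold higher were 0 after each miRNA except miR-1825, where it was 1. Of single genes called 2-fold higher, those below 0 with this reference were, after miR-199a-3p, Cenpf (-0.51), Knstrn (-0.50), Ndc80 (-0.0073) and Pttg1 (-0.41). After miR-33b* they were Cenpf (-0.26) and Knstrn (-0.25), after miR-302d-3p Cenpf (-0.46) and Pttg1 (-0.50), and after miR-373-3p Cenpf (-0.21), Knstrn (-0.53) and Pttg1 (-0.55). Changes around such a mean fall on both sides of 0 by construction, and the high miR-1825 library raises it for the other 5, so these values do not bear on the cel-miR-67 library. The spread between cultures is not measured. Depth limits Pttg1 and Knstrn most, with 125 and 264 reads in the cel-miR-67 library.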
